A study of Manihot esculenta with 44 samples.

Results

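Leaves of cassava (Manihot esculenta, variety KU50) taken in a Hanoi field on 10 October 2019 were set against leaves from the same field on 7 August 2019, 64 days earlier, with 4 RNA sequencing libraries per date. These are 8 of the 44 libraries of a study with 11 groups of 4, which followed a non-flowering field in Hanoi and a flowering field in the mountains of Bac Kan. The 8 were chosen by the site and date in the sample titles. Both dates share variety, field and planting from lignified stem cuttings, and the labels name no treatment or mutation in either group. Each site is 1 field in 1 year, and the labels give neither the plant behind each library nor the hour of collection nor the weather. P-values therefore measure the spread between these libraries, which may be technical. Bac Kan leaves of 5 October against 15 August (4 libraries each, same variety) span nearly the same weeks and are used to show where Hanoi differs. In such bulk leaf samples, fewer cells of a type and less RNA per cell cannot be told apart.

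The labels disagree with each other. A second field of the labels repeats the titled date for 1 of the 8 samples and gives another date for the other 7, and it names the other site for 4 of the 8. The titles were used because the deposited tables are named by them. Table columns carry no replicate number, so "library 1" to "library 4" only give a column's place in its table.

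Leaves measure day length through the circadian clock, a loop of transcription factors in which morning genes such as LHY repress evening genes and are repressed in turn by pseudo-response regulators. Its output sets the level of FT, a mobile protein made in leaves that starts flowering at the shoot tip. Relatives of FT such as TFL1 and BFT oppose it, and MADS-box genes such as SOC1 and FUL act after it. Leaves also store starch by day and break it down at night, and they make small heat shock proteins, chaperones that bind unfolding proteins, above all when hot. All of this is known best from Arabidopsis, whose names the cassava genes carry here as the best match in the deposited annotation.

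Values are rescaled FPKM, that is, fragments per kilobase of transcript scaled to sequencing depth, summed over the transcripts of a gene and brought to 1000000 per library. Changes are differences of log2(value + 1), October minus August, with an adjusted p below 0.05 as the threshold, and they understate the change of genes near 0. Before rescaling, the 8 totals ran from 705174 to 748737. The number of reads is not given, but steps in the lowest values gave relative depths of 0.982 to 1.18 of the mean in the October libraries and 0.680 to 1.14 in the August libraries (exact two-sided permutation p = 0.314), with August library 4 the shallowest. The 10 most abundant genes took 8.08% ± 0.235 of the signal on 10 October and 10.1% ± 0.526 on 7 August (SD, n = 4 each; exact permutation p = 0.0286, the smallest that 4 against 4 allow). On 10 October 19231 to 19406 genes reached a value of 1, against 19534 to 19661 on 7 August (exact permutation p = 0.0286). Noncoding RNA entries took 0.138% to 0.229% of the signal in October and 0.182% to 0.279% in August (exact permutation p = 0.4).

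The libraries looked like leaf on both dates. The 11 homologues of 9 leaf mesophyll markers summed to 20448 to 25022 on 10 October and 17815 to 20857 on 7 August. The 13 homologues of meristem and dividing-cell markers, among them STM, KNAT1, WUS and CUC2 at 0 throughout, summed to 0.521 to 2.17 in October and 0 to 5.15 in August. Flower organ markers had 8 of 18 homologues at 0 in all 8 libraries, AG MANES_15G115500 and both CRC homologues among them, and summed to 55.4 to 78.0 in October and 38.0 to 80.0 in August, of which SHP1 MANES_02G085500 made up the largest part. The other AG homologue, MANES_17G062000, was at 5.44, 4.66, 2.43 and 5.16 in October and 1.17, 0.551, 1.23 and 2.13 in August, and did not pass (adjusted p = 0.0661 in limma). SEP2 MANES_14G088400 was the 1 flower marker called. It was at 1.35, 0.942, 2.85 and 0.287 in October and listed at 0 in all 4 August libraries (adjusted p = 0.00457 in limma). Xylem markers summed to 0.356 to 3.01 in October and 2.37 to 7.35 in August, with 5 of 23 homologues at 0. Every library was closest to a library of its own date, with log2 correlations of 0.922 to 0.953 within dates and 0.880 to 0.901 between them.

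Of 23405 genes tested, 4333 changed (18.5%): 2425 were higher (10.4%) and 1908 lower (8.15%) on 10 October. At an unadjusted p below 0.05 there were 6986. The change reached 1 on the log2 scale for 1210 of the genes that rose and 1139 of those that fell, and it reached 3 for 41 and 78. The median change over all genes tested was 0.03. Among 30 lists of cassava homologues of Arabidopsis genes, the heat shock and starch lists held the highest shares of members that fell, and the lists of floral repressors, circadian clock genes and photoperiod genes the highest shares that rose, among lists with 10 or more members tested. A list's counts are given with its median change where it is first described, to be read against the 10.4%, the 8.15% and the 0.03 of all genes.

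**Figure D1:**
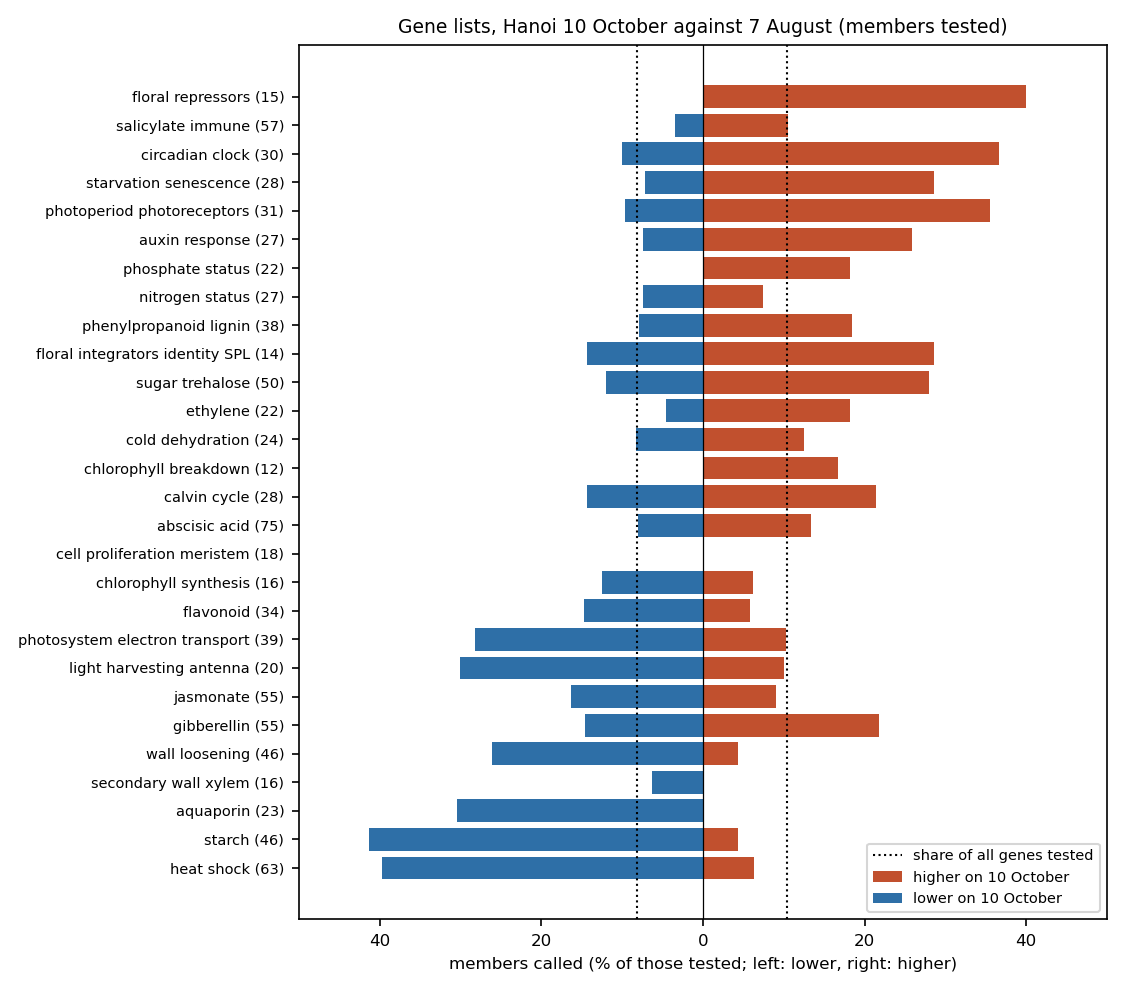
Share of the members of each gene list that were higher (right, orange) or lower (left, blue) on 10 October than on 7 August at an adjusted p below 0.05, in percent of the members tested (number in brackets), for lists with at least 10 tested, sorted by median change. Dotted lines mark the shares of all genes, 10.4% higher and 8.15% lower. Heat shock and starch lie at the bottom, floral repressors at the top.

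The flowering genes changed mostly upward, with the largest change in a BFT homologue. BFT, in Arabidopsis a floral repressor of the FT and TFL1 family, is represented by MANES_14G027800. It was at 125, 237, 220.1 and 150.02 in the October libraries, against 0, 0.637, 0.425 and 0.527 in the August libraries. In the October libraries the gene was among the well expressed, while in August it was barely detected (log2 change 7.02 ± 0.46 SE, adjusted p = 8.21e-14). It was the only member of the family that changed. The FT homologue MANES_13G000800 was at 0, 1.21, 0 and 0 in the October libraries, against 1.21, 1.14, 0 and 0 in the August libraries, and it did not pass the test (log2 change -0.28 ± 0.67 SE, adjusted p = 0.84). FT MANES_12G001600 stood at 0 in each of the 8, as did the homologues of TFL1 (3 genes), ATC (2 genes) and MFT (2 genes).

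Of the 14 members tested on the list of integrators, floral identity and SPL genes, 4 rose and 2 fell (median 0.12). A further 12 homologues were below the filter. FUL MANES_14G088500, a MADS-box promoter of flowering, was at 106, 90.9, 108 and 82.3 in the October libraries, against 16.0, 23.3, 16.7 and 5.52 in the August libraries (log2 change 2.72 ± 0.67 SE, adjusted p = 0.00284). The other FUL homologues overlapped between dates: MANES_06G081800 changed by 0.99 (adjusted p = 0.126) and MANES_02G059300 by 0.33 (adjusted p = 0.387). SOC1 MANES_05G041900, which integrates the flowering pathways, was at 231, 244, 267 and 213 in the October libraries, against 142, 135, 102 and 101 in the August libraries (log2 change 1.0 ± 0.22 SE, adjusted p = 0.000853), and every October library lay above every August library. The second SOC1 homologue, MANES_01G263500, averaged 17.2 ± 2.0 on 10 October and 14.4 ± 1.41 on 7 August (adjusted p = 0.647). AGL19 MANES_02G030100, a related MADS-box promoter of flowering, rose by 0.8 (adjusted p = 0.00142). The SPL genes, targets of the age-dependent miR156, moved in both directions. SPL5 MANES_03G106900 was at 4.23, 6.46, 7.65 and 8.48 in the October libraries, against 68.9, 47.5, 46.0 and 79.0 in the August libraries (log2 change -2.99 ± 0.35 SE, adjusted p = 4.09e-08), the largest fall on the list. SPL3 MANES_17G047500 fell by 0.94 (adjusted p = 0.0249), and SPL4 MANES_13G144400 rose by 0.66 (adjusted p = 0.0016). The genes that specify a floral meristem stayed at or near 0: both LFY homologues and AP1 MANES_01G025600 and MANES_05G111900 were listed at 0 in all 8 libraries, and AP1 MANES_01G103200 was at 0, 1.89, 1.87 and 1.94 in the October libraries, against 4.74, 1.11, 1.79 and 2.58 in the August libraries (adjusted p = 0.465). FUL MANES_14G088500 missed the threshold at a pseudocount of 0.1 (adjusted p = 0.0811), SOC1 with the most abundant transcript alone (adjusted p = 0.183), and SPL3 without August library 2 or 3 or October library 2 or 4 (adjusted p = 0.0719, 0.0731, 0.0608 and 0.0749).

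On the list of floral repressors, 6 rose and none fell of the 15 members tested (median 0.55). SVP, a MADS-box repressor of FT and SOC1 in Arabidopsis, has 5 tested homologues, of which 3 rose. MANES_18G059200 was at 119.9, 114, 131 and 129.5 in the October libraries, against 52.2, 65.2, 60.1 and 61.6 in the August libraries (log2 change 1.04 ± 0.17 SE, adjusted p = 2.72e-05). MANES_07G038600 averaged 214 ± 6.6 on 10 October and 112 ± 25.2 on 7 August (SD, n = 4 each; log2 change 0.95, adjusted p = 1.99e-05), and MANES_12G126800 41.8 ± 3.26 on 10 October and 21.3 ± 7.42 on 7 August (log2 change 1.02, adjusted p = 0.00711). The last of these missed the threshold without August library 3, its lowest (adjusted p = 0.0693). Neither MANES_10G099000 (adjusted p = 0.11) nor MANES_02G145300 (adjusted p = 1) passed. Both homologues of TEM1, which binds and represses FT in Arabidopsis, rose. MANES_14G098000 was at 63.6, 44.3, 41.5 and 66.6 in the October libraries, against 19.3, 10.6, 7.81 and 17.79 in the August libraries (log2 change 1.94 ± 0.52 SE, adjusted p = 0.00612), and MANES_06G071700 averaged 23.0 ± 6.48 on 10 October and 5.22 ± 2.19 on 7 August (log2 change 1.98, adjusted p = 0.00267; 0.25 with a pseudocount of 0.1). In all these genes the groups did not overlap, apart from MANES_02G145300. Such separation held for 25.1% of all genes tested. On the list of floral organ identity genes 1 rose and none fell of the 8 tested (median 0.23), and 13 more were below the filter.

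**Figure D2:**
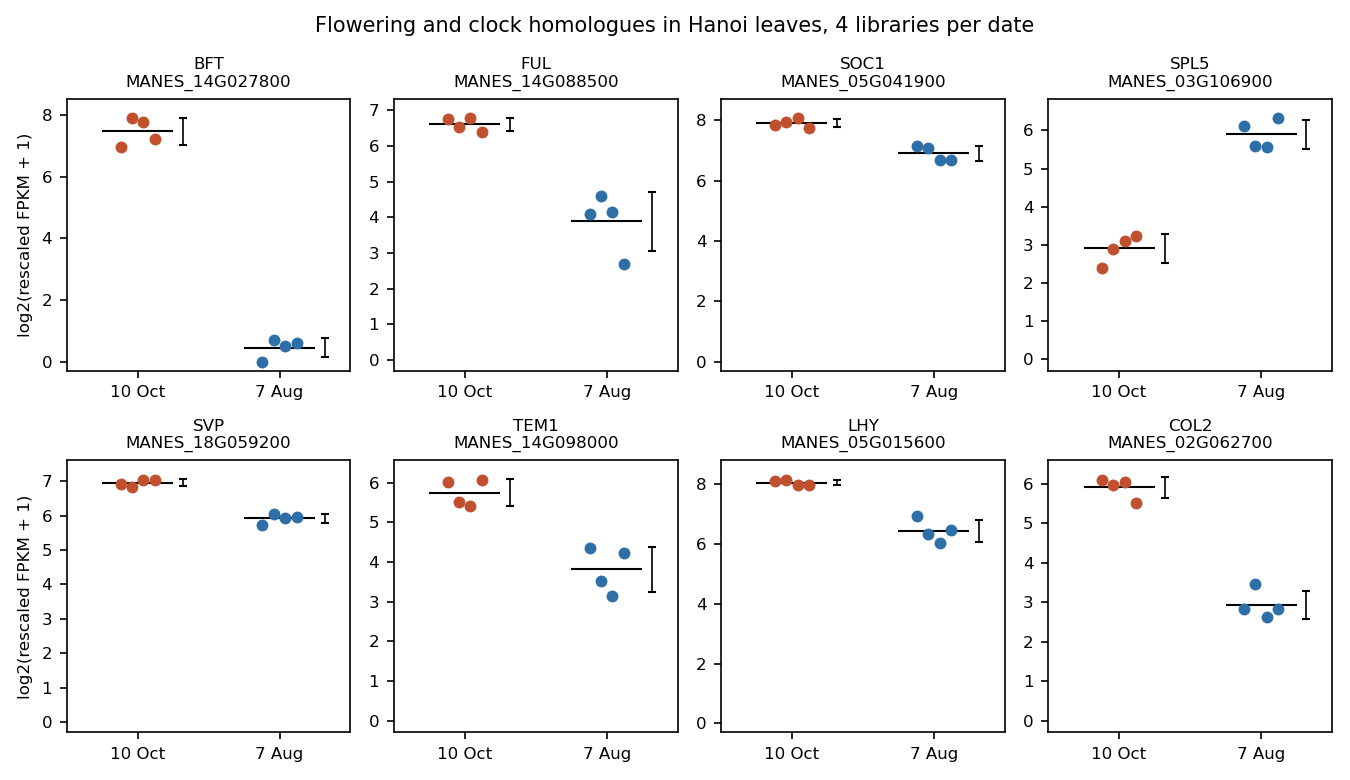
Level of 8 flowering and clock homologues in each library, as log2(rescaled FPKM + 1), with 10 October (orange) left of 7 August (blue). Points are libraries, horizontal lines means, and bars at the side 1 SD of the 4 libraries. Groups are apart in every panel, as they are for 25.1% of all genes tested, and SPL5 is the only gene of the 8 that is lower on 10 October.

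Of the circadian clock list, 11 rose and 3 fell of the 30 members tested (median 0.38), and none of its 30 members was below the filter. The largest rises were of RVE1, LHY, PRR5 and RVE8 homologues. LHY MANES_05G015600 was at 277, 283, 253 and 254 in the October libraries, against 121, 80.1, 65.3 and 87.2 in the August libraries (log2 change 1.61 ± 0.24 SE, adjusted p = 2.98e-06). Its copy MANES_01G239000 averaged 94.6 ± 12.6 on 10 October and 24.8 ± 5.59 on 7 August (log2 change 1.91, adjusted p = 2.52e-06; 0.243 with its most abundant transcript alone). RVE1 MANES_01G123100, a related factor that links the clock to auxin, was at 119, 96.0, 105 and 63.6 in the October libraries, against 21.5, 25.1, 2.68 and 2.54 in the August libraries (log2 change 3.34 ± 0.55 SE, adjusted p = 1.78e-05). Its August libraries fell into a higher and a lower pair, and all 4 lay below October. RVE1 MANES_02G080700 rose by 2.01 (adjusted p = 0.000128) and RVE8 MANES_09G079800 by 1.74 (adjusted p = 0.000251). GRP7 MANES_15G163200, a clock-driven RNA-binding protein and a very abundant transcript, averaged 6462 ± 499 on 10 October and 2698 ± 825 on 7 August (log2 change 1.32, adjusted p = 0.000207). The pseudo-response regulators split. PRR5 MANES_05G016200 was at 96.8, 108, 110.0 and 77.3 in the October libraries, against 38.3, 21.6, 23.9 and 23.59 in the August libraries (log2 change 1.85 ± 0.25 SE, adjusted p = 6.26e-07), while PRR3 MANES_07G104900 and PRR7 MANES_07G105100 and MANES_08G001600 made up the 3 members that fell, by 0.91, 0.95 and 0.59 (adjusted p = 0.0117, 0.0127 and 0.00712). No homologue of the evening-phased TOC1, GI or FKF1 passed. The TOC1 homologues had an adjusted p of 0.271 and 0.426 in limma. GI MANES_18G095000 averaged 54.6 ± 15.5 on 10 October and 63.6 ± 6.96 on 7 August (adjusted p = 0.365). FKF1 MANES_15G134900 averaged 35.6 ± 14.5 on 10 October and 43.5 ± 21.97 on 7 August (adjusted p = 0.805). PRR7 MANES_07G105100 missed the threshold without October library 2 or 4 (adjusted p = 0.0536 and 0.052), and MANES_08G001600 with its most abundant transcript alone (adjusted p = 0.113). The hour of collection is not given for either date, and clock transcripts cycle through the day; the part of the hour in these values was not tested.

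Of photoperiod genes and photoreceptors, 11 rose and 3 fell of the 31 members tested (median 0.37), with 7 rises without August library 3 or October library 1. COL2 MANES_02G062700, a relative of the day-length sensor CO, was at 68.1, 62.4, 65.0 and 44.9 in the October libraries, against 6.08, 10.0, 5.18 and 6.07 in the August libraries (log2 change 2.98 ± 0.4 SE, adjusted p = 4.55e-07), and its copy MANES_01G106200 averaged 40.5 ± 10.6 on 10 October and 11.0 ± 4.0 on 7 August (log2 change 1.82, adjusted p = 0.00699; 0.124 with a pseudocount of 0.1). The homologue of CO itself, MANES_01G024100, was at 3.68, 3.63, 1.46 and 6.26 in the October libraries, against 1.93, 0.404, 0 and 2.0 in the August libraries, and it did not pass (adjusted p = 0.086). All 3 homologues of CDF2, a repressor of CO in Arabidopsis, rose. MANES_05G103100 changed by 0.8 and MANES_01G092100 by 1.22 (adjusted p = 0.0128 and 0.0487). The call of MANES_01G092100 was lost in 12 of the 16 alternatives, among them the removal of any single library but October library 4 (adjusted p up to 0.134, without October library 3). That of MANES_05G103100 was lost with its most abundant transcript alone (adjusted p = 0.332) and without August library 3 or October library 1 (adjusted p = 0.076 and 0.0502). MANES_01G035000 was at 1.45, 0.386, 1.1 and 0.884 in the October libraries and listed at 0 in all 4 August libraries (adjusted p = 0.00808). Both homologues of CIB1, a partner of cryptochrome that promotes FT in Arabidopsis, fell. CIB1 MANES_11G086600 was at 83.3, 99.6, 77.2 and 96.4 in the October libraries, against 274, 351, 319.9 and 227 in the August libraries (log2 change -1.69 ± 0.23 SE, adjusted p = 8.47e-07). MANES_04G088800 averaged 13.9 ± 1.66 on 10 October and 46.1 ± 7.5 on 7 August (adjusted p = 5.73e-05). The remaining fall was that of the phytochrome PHYE MANES_15G117200, by 0.63 (adjusted p = 0.0362). Its libraries overlapped, and it missed the threshold in 6 of the 16 alternatives, 5 of which left out a library (August 1 or 4, October 1, 2 or 4; adjusted p up to 0.203, without August library 1).

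The heat shock genes had the lowest median change of the 30 lists. Of 63 members tested, 25 fell and 4 rose, with a median of -0.96. Among 37 tested homologues of small heat shock proteins 13 fell, 1 rose and the median was -1.16. HSP17.6II MANES_16G083600, a cytosolic small heat shock protein of class II, was at 4.28, 1.77, 4.52 and 4.86 in the October libraries, against 197, 956, 1366 and 332 in the August libraries (log2 change -6.86 ± 0.45 SE, adjusted p = 8.21e-14). It was uniformly low in October, and the August libraries differed several-fold among themselves, libraries 2 and 3 being the high ones. HSP17.6C MANES_04G138400 was at 3.26, 0, 1.96 and 4.75 in the October libraries, against 58.7, 137, 211 and 76.4 in the August libraries (adjusted p = 2.72e-10). HSP21 MANES_12G017300, the small heat shock protein of the chloroplast, was at 1.6, 1.86, 0.421 and 1.36 in the October libraries, against 15.67, 108, 223 and 17.39 in the August libraries (log2 change -4.55 ± 0.8 SE, adjusted p = 5.2e-05). Of the larger chaperones both HSP90.1 homologues fell. HSP90.1 MANES_06G152800 was at 2.56, 3.08, 2.86 and 2.82 in the October libraries, against 114, 149, 186 and 33.4 in the August libraries (log2 change -4.75 ± 0.52 SE, adjusted p = 1.06e-08), and August library 4 was the lowest of its date. MANES_14G022300 averaged 5.23 ± 1.86 on 10 October and 44.8 ± 18.3 on 7 August (log2 change -2.82, adjusted p = 2.2e-06). HSP101 MANES_06G085600, which pulls aggregated proteins apart, fell by 0.99 (adjusted p = 0.039), and HSP70 MANES_07G114200 by 0.76 (adjusted p = 0.0437). Both calls were weak, lost in 8 and in 10 of the 16 alternatives, with adjusted p up to 0.141 without August library 1 and 0.134 without August library 3. None of 3 HSP60 homologues passed (adjusted p = 0.136 to 0.79). ROF1 MANES_05G198600, an immunophilin that partners HSP90, was listed at 0 in all 4 October libraries, against 14.6, 72.3, 77.2 and 13.4 in the August libraries (adjusted p = 8.21e-10). BAG6 MANES_01G250800, a co-chaperone tied to stress and cell death, was at 81.6, 87.4, 85.0 and 81.8 in the October libraries, against 577, 1021, 1077 and 440.5 in the August libraries (log2 change -3.1 ± 0.21 SE, adjusted p = 1.36e-13). HSFA2 MANES_03G049500, the factor that prolongs the heat response in Arabidopsis, was at 0.226, 0, 1.19 and 0 in the October libraries, against 9.28, 15.5, 16.9 and 1.97 in the August libraries (adjusted p = 0.000366; it was named after its value was seen). The other tested HSFA2 homologues, MANES_03G035500 and MANES_16G081500, were not called (log2 change 0.02 and 0). APX1 MANES_11G139700, a cytosolic peroxidase that removes hydrogen peroxide and is no member of the list, fell to 13.7 ± 2.6 on 10 October, against 49.0 ± 8.82 on 7 August (log2 change -1.77, adjusted p = 2.61e-10).

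The 4 members that rose were the repressor-type factors HSFB2B MANES_01G065200 (log2 change 1.48, adjusted p = 0.00101) and HSFB2A MANES_14G027700 (log2 change 1.59, adjusted p = 0.00192), HSP17.6C MANES_10G020100 (log2 change 1.11, adjusted p = 0.00335) and HSP70 MANES_10G032000 (log2 change 1.18, adjusted p = 0.00278). HSFB2A and HSP70 overlapped between the dates and each lost its call in 1 of the 16 alternatives. Leaving out single libraries or changing the settings gave 20 to 28 members lower and 2 to 5 higher.

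**Figure D3:**
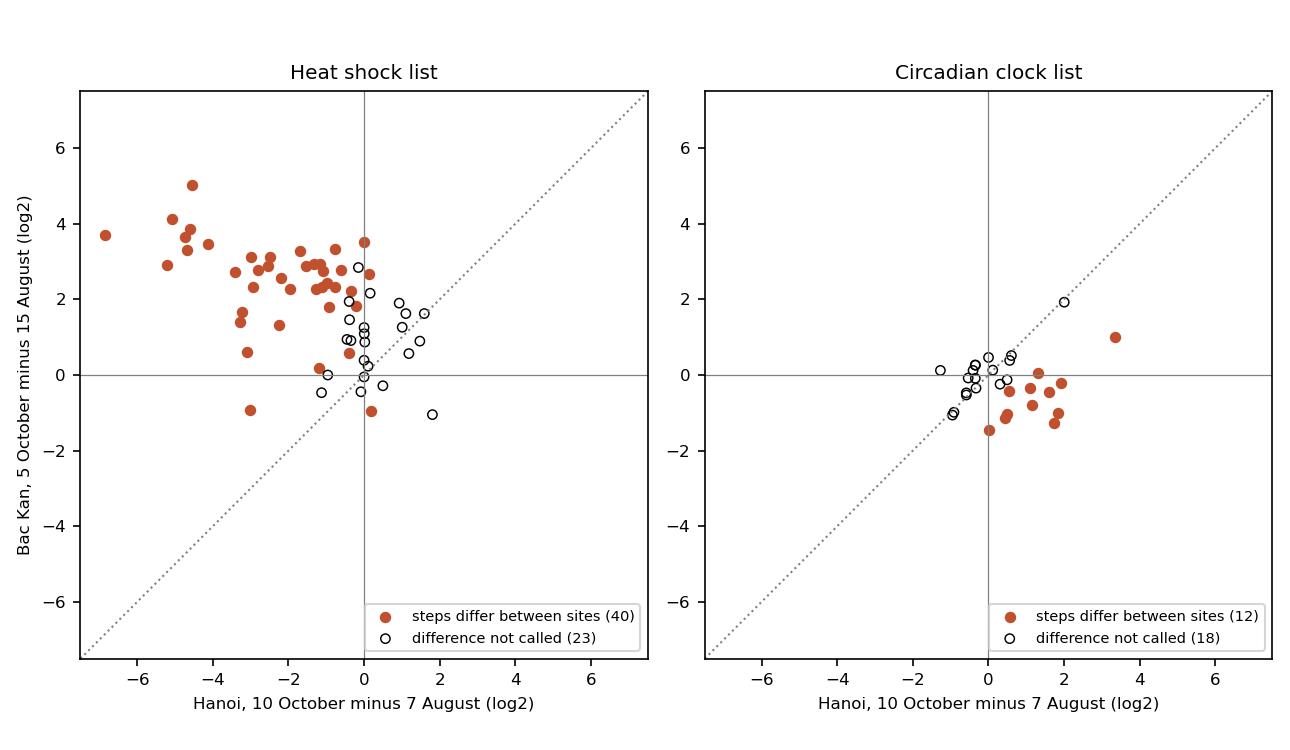
Change of each heat shock (left) and circadian clock (right) homologue in Hanoi, 10 October minus 7 August (horizontal axis, log2), against its change in Bac Kan, 5 October minus 15 August (vertical axis, log2). Filled points are genes whose changes differ between the sites at an adjusted p below 0.05 (40 heat shock and 12 clock genes), and the dotted line marks equal changes. Most heat shock genes lie above the line and the filled clock genes below it.

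Between almost the same weeks in Bac Kan the heat shock list went the other way: 43 members rose and 2 fell, where 7.17% of all genes tested rose and 5.78% fell, with a median of 2.16. For 39 of the 63 the change was smaller in Hanoi than in Bac Kan by the test of the difference itself, and for 1 it was larger, against 5.36% and 5.4% of all genes tested. HSP17.6II MANES_16G083600 averaged 520.1 ± 272 on 5 October and 35.8 ± 13.6 on 15 August in Bac Kan (difference of the changes -10.56 ± 0.64 SE, adjusted p = 2.04e-14). HSP90.1 MANES_06G152800 averaged 942 ± 599 on 5 October and 56.9 ± 24.5 on 15 August there (difference -8.4 ± 0.74 SE, adjusted p = 3.02e-10), and HSP21 MANES_12G017300 154 ± 99.7 on 5 October and 3.71 ± 2.91 on 15 August (difference -9.57 ± 1.13 SE, adjusted p = 1.3e-07). In all, 21 members both fell in Hanoi and rose in Bac Kan. Of the clock list, 12 members had a larger change in Hanoi and none a smaller one. LHY MANES_05G015600 averaged 76.1 ± 13.9 on 5 October and 104 ± 13.2 on 15 August in Bac Kan (difference 2.06 ± 0.34 SE, adjusted p = 3.71e-05). Over all genes the changes differed between the sites for 2517 (10.8%). Of the 4333 genes called in Hanoi 26.8% were also called in Bac Kan, which is 38.3% of the 3030 called there, 855 in the same direction and 307 in the opposite one. The Bac Kan dates were 8 days after the Hanoi August date and 5 days before the Hanoi October date.

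Many genes of starch metabolism fell. On its list, 2 rose and 19 fell of the 46 members tested (median -0.56). The falls took in both arms of the pathway: of 20 tested homologues of synthesis genes 11 fell and none rose, and of 26 homologues of breakdown genes 8 fell and 2 rose. DPE2 MANES_08G162200, the cytosolic enzyme that uses the maltose exported from chloroplasts at night, was at 9.16, 12.9, 9.93 and 12.8 in the October libraries, against 119, 119, 98.5 and 93.3 in the August libraries (log2 change -3.16 ± 0.18 SE, adjusted p = 3.15e-15). PWD MANES_05G194300, which phosphorylates starch granules before breakdown, was at 12.8, 15.0, 11.3 and 15.4 in the October libraries, against 51.9, 63.3, 49.4 and 57.2 in the August libraries (log2 change -1.95 ± 0.16 SE, adjusted p = 6.05e-12). AMY3 MANES_05G097100, an amylase of the chloroplast, averaged 22.1 ± 2.58 on 10 October and 73.0 ± 5.99 on 7 August (log2 change -1.68, adjusted p = 1.1e-10). In all of these the October libraries lay within a narrow band well below August. The members that rose were the beta-amylases BAM1 MANES_03G155800, at 32.4, 20.7, 20.2 and 17.5 in the October libraries, against 13.6, 12.8, 5.76 and 5.52 in the August libraries (log2 change 1.25, adjusted p = 0.00252), and BAM3 MANES_15G171200, whose libraries overlapped (log2 change 0.57, adjusted p = 0.0275) and whose call was lost in 6 of 16 alternatives. DPE2 did not pass the test in Bac Kan, at 94.2 ± 28.6 on 5 October and 107 ± 23.3 on 15 August (difference of the changes -2.95 ± 0.26 SE, adjusted p = 2.83e-10).

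Genes of sugar transport and signalling changed in both directions, as 14 rose and 6 fell of the 50 members tested (median 0.1). STP13, a hexose importer, and SWEET1 had the largest rises. STP13 MANES_15G027300 was at 94.9, 84.7, 107 and 103 in the October libraries, against 11.2, 15.73, 19.9 and 41.5 in the August libraries (log2 change 2.25 ± 0.37 SE, adjusted p = 2.27e-05), and both STP1 homologues rose, MANES_17G033300 by 1.39 and MANES_16G020100 by 1.03 (adjusted p = 0.0014 and 0.00216). SWEET proteins let sugars pass membranes along their gradient, and 5 of 9 tested homologues of the family rose while 2 fell. SWEET1 MANES_02G174100 was at 125, 124, 165 and 145 in the October libraries, against 32.3, 22.3, 36.0 and 27.4 in the August libraries (log2 change 2.22 ± 0.25 SE, adjusted p = 1.75e-08). SWEET17 MANES_15G011300, whose Arabidopsis namesake moves fructose across the vacuole membrane, went the other way and averaged 16.7 ± 1.77 on 10 October and 85.7 ± 18.4 on 7 August (log2 change -2.27, adjusted p = 1.39e-06). Of the 6 tested homologues of SWEET17 it was 1 of a pair that fell, with MANES_03G197300 at 3.04, 0.471, 0 and 0.863 in the October libraries, against 11.1, 7.8, 13.1 and 2.95 in the August libraries (adjusted p = 0.00151). MANES_09G172000 and MANES_01G120400 rose, by 1.22 and 0.73 (adjusted p = 0.0127 and 0.0318), and the call of MANES_01G120400 was lost in 6 of the 16 alternatives, 5 of which left out a library (adjusted p up to 0.117, without August library 1). The raffinose synthase RS5 MANES_17G115500 rose by 1.5 (adjusted p = 0.00158), and GOLS1 MANES_03G208800, which makes the galactinol that raffinose synthesis needs, was at 60.1, 109, 161 and 52.4 in the October libraries, against 3.78, 14.7, 14.6 and 12.6 in the August libraries (log2 change 2.96 ± 0.48 SE, adjusted p = 1.33e-05). Its copies MANES_05G012000 and MANES_15G003200 did not pass (adjusted p = 0.417 and 0.971 in limma). Neither did the GOLS2 homologues MANES_08G109300 and MANES_09G179100 (adjusted p = 0.0875 and 0.0741 in limma).

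**Figure D4:**
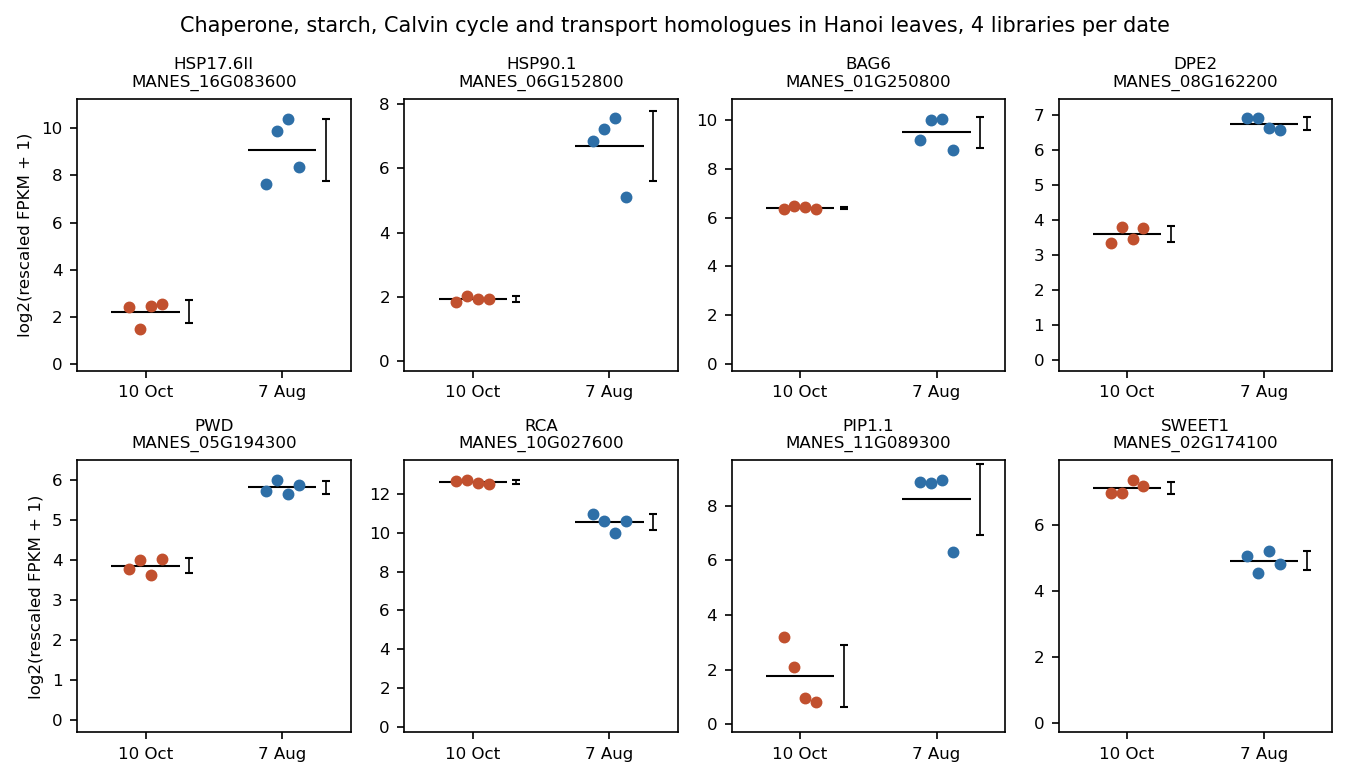
Level of 8 chaperone, starch, Calvin cycle and transport homologues in each library, as log2(rescaled FPKM + 1), with 10 October (orange) left of 7 August (blue). Points are libraries, horizontal lines means, and bars at the side 1 SD of the 4 libraries. RCA and SWEET1 are higher on 10 October, the other 6 lower, and PIP1.1 and HSP90.1 show the low August library 4.

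Photosynthesis genes moved less, and unevenly. RCA MANES_10G027600, the activase that frees Rubisco of inhibitors, changed most, at 6647, 6744, 6029 and 5972 in the October libraries, against 1994, 1577, 1030.5 and 1582 in the August libraries (log2 change 2.07 ± 0.21 SE, adjusted p = 2.04e-09). Its second homologue, MANES_09G095000, averaged 126 ± 9.53 on 10 October and 49.7 ± 21.8 on 7 August (adjusted p = 0.00371). Of the 28 Calvin cycle genes tested 6 rose and 4 fell (median -0.003), with 3 rises without August library 3 or October library 1 or 2. SBPASE MANES_07G124800, an enzyme that regenerates the carbon dioxide acceptor, rose by 0.78 (adjusted p = 0.000871). Among the falls were the Rubisco small subunit RBCS3B MANES_01G011500, at 4329, 4045, 3690.5 and 3873 in the October libraries, against 6556, 5626, 6104 and 5894 in the August libraries (log2 change -0.6, adjusted p = 0.00179), and TPI MANES_11G089900, triosephosphate isomerase, by 1.15 (adjusted p = 1.21e-05). The light-harvesting antenna list had 2 rises and 6 falls of 20 (median -0.13), with 1 rise without August library 1 or October library 1 or 4. Of 9 homologues of LHCA genes, the antenna of photosystem I, 5 fell and none rose, while of 11 tested homologues of LHCB genes, the antenna of photosystem II, 2 rose and 1 fell. LHCA3 MANES_13G058600 averaged 3377 ± 409 on 10 October and 5520.3 ± 1019.6 on 7 August (log2 change -0.7, adjusted p = 0.00109), and LHCB3 MANES_03G116700 1265 ± 150.4 on 10 October and 850.4 ± 15.2 on 7 August (log2 change 0.56, adjusted p = 0.0102). On the list of photosystem and electron transport genes, 4 rose and 11 fell of the 39 members tested (median -0.11). The largest change on it was the fall of the ferredoxin FD2 MANES_07G020000 (log2 change -1.86, adjusted p = 0.00567 in limma). Its copies MANES_07G020100 and MANES_10G123200 did not pass (adjusted p = 0.696 and 0.284). PSBQ2 MANES_16G017000, of the oxygen-evolving complex, fell by 1.1 (adjusted p = 3.19e-06), and PSAN MANES_12G156000, of photosystem I, rose by 1.01 (adjusted p = 7.09e-05). Chlorophyll synthesis had 1 rise and 2 falls of 16 (median -0.05). Chlorophyll breakdown had 2 rises of 12 (median 0.05), SGR1 MANES_02G030000 at 24.3 ± 1.46 on 10 October and 10.3 ± 0.433 on 7 August (log2 change 1.16, adjusted p = 0.00126) and PAO MANES_04G012500 at 80.9 ± 2.5 on 10 October and 48.8 ± 6.17 on 7 August (log2 change 0.73, adjusted p = 0.00117). Markers of the senescing leaf summed to 263 to 331 in October and 273 to 374 in August. The NYC1 homologues MANES_03G021500 and MANES_16G115400 made up the largest part of these sums. SGR1 was the 1 marker of this set that was called, and no SAG12 homologue exceeded 3.03 in any of the 8 libraries.

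On the lists for cell expansion, falls outnumbered rises and most members were not called. Aquaporins, the water channels of the plasma and vacuole membranes, had 7 falls and no rise among 23 tested (median -0.49). PIP1.1 MANES_11G089300 was at 8.26, 3.29, 0.935 and 0.754 in the October libraries, against 470.2, 449.7, 491 and 77.2 in the August libraries (log2 change -6.46 ± 0.6 SE, adjusted p = 3.04e-10), with August library 4 far below the other August libraries and still above October. TIP4.1 MANES_03G062300 was at 1.16, 0.361, 2.05 and 0.991 in the October libraries, against 6.89, 5.8, 9.55 and 10.1 in the August libraries (log2 change -2.12, adjusted p = 0.000156). Of 46 wall-loosening genes 12 fell and 2 rose (median -0.35), 6 of the falls among the 18 tested expansin homologues. XTH9 MANES_12G076800, which cuts and rejoins xyloglucan, was at 48.5, 27.0, 26.8 and 17.9 in the October libraries, against 711, 227, 443 and 199 in the August libraries (log2 change -3.57 ± 0.56 SE, adjusted p = 8.56e-06), and the expansin EXPA15 MANES_01G092600 averaged 2.88 ± 1.3 on 10 October and 27.0 ± 11.8 on 7 August (adjusted p = 0.000294). TCH4 MANES_14G152100, a touch-inducible enzyme of the same family as XTH9 and 1 of the 2 rises, was at 21.4, 44.1, 28.8 and 35.4 in the October libraries, against 0, 0.738, 4.93 and 3.05 in the August libraries (log2 change 3.67 ± 0.44 SE, adjusted p = 7.29e-08). The other rise, XTH28 MANES_17G087100, overlapped between the dates (log2 change 0.42, adjusted p = 0.0441) and was lost in 8 of 16 alternatives. No gene of the list for cell proliferation and meristems was called among 18 tested by limma, 1 had an unadjusted p below 0.05 (median -0.03), and 23 more were below the filter. Of 16 tested genes of secondary walls (median -0.42) 1 fell, FLA11 MANES_11G143700, at 0, 0, 0 and 0.199 in the October libraries, against 1.75, 3.09, 1.92 and 0.34 in the August libraries (adjusted p = 0.0156; 0.0754 without August library 2). The summed xylem markers, 0.356 to 3.01 in October and 2.37 to 7.35 in August, moved the same way, and their part in this fall was not tested.

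Hormone genes showed mixed changes. Of 55 gibberellin genes tested 12 rose and 8 fell (median -0.2), and 4 or 5 fell without August library 1 or October library 2, 3 or 4. The rises included 4 homologues of GA2, the ent-kaurene synthase early in the pathway, of which MANES_16G065800 was at 179, 188, 194 and 162 in the October libraries, against 28.6, 42.2, 44.8 and 86.0 in the August libraries (log2 change 1.93 ± 0.26 SE, adjusted p = 5.88e-07). CYP714A1, of a family that inactivates gibberellins in Arabidopsis, has 13 tested homologues, of which 2 rose and 2 fell. MANES_18G122600 and MANES_18G122800 rose by 1.84 and 1.7 (adjusted p = 0.000116 and 9.52e-07). MANES_18G122500 and MANES_03G045800 fell by 1.17 and 1.09 (adjusted p = 0.023 and 0.0319), each losing its call in 6 of the 16 alternatives, 4 of which left out a library (adjusted p up to 0.168 without October library 3 and 0.129 without October library 1). GA20OX1 MANES_06G141200, which makes precursors of active gibberellin, was at 16.5, 15.2, 26.9 and 31.8 in the October libraries, against 72.4, 53.0, 62.6 and 58.0 in the August libraries (log2 change -1.46 ± 0.18 SE, adjusted p = 7.29e-08), and the gibberellin-regulated GASA14 MANES_17G119200 was at 2.24, 0, 2.36 and 0 in the October libraries, against 31.4, 13.8, 14.0 and 24.96 in the August libraries (adjusted p = 2.13e-06). Of 27 auxin response genes 7 rose and 2 fell (median 0.27). The Aux/IAA repressor IAA3 MANES_09G152700 was at 31.3, 55.9, 22.8 and 28.7 in the October libraries, against 0, 6.34, 0 and 0 in the August libraries (log2 change 4.36 ± 0.74 SE, adjusted p = 3.01e-05), and IAA29 MANES_14G115100 averaged 58.7 ± 10.4 on 10 October and 22.2 ± 6.69 on 7 August (adjusted p = 0.00065). The homologues of IAA16, another of these repressors, moved apart: MANES_04G120800 rose by 1.4 (adjusted p = 0.00708), while both falls of the list were of MANES_08G135000 and MANES_09G152500, by 0.87 and 0.83 (adjusted p = 0.00157 and 0.0275), and MANES_09G152500 missed the threshold without August library 1 or 2 or October library 3 (adjusted p = 0.0645, 0.0708 and 0.113). In the ethylene pathway 4 of 22 rose and 1 fell (median 0.08). CTR1 MANES_10G055300, a homologue of its brake, rose by 1.65 (adjusted p = 1.45e-05) and EIN3 MANES_04G052000, its main transcription factor, by 0.61 (adjusted p = 3.69e-05). The other tested CTR1 homologues, MANES_08G020600, MANES_09G060700 and MANES_S041300, did not pass (adjusted p = 0.887, 0.873 and 0.82 in limma). The fall was of ACO4 MANES_16G002300, an enzyme of ethylene synthesis, by 0.83 (adjusted p = 0.0111; 0.0507 without October library 2), while its copy MANES_13G065800 rose by 0.53 (adjusted p = 0.00429). Of 75 abscisic acid genes 10 rose and 6 fell (median -0.01). ABA2, an enzyme of its synthesis, has 7 tested homologues, of which MANES_07G051300 was at 119.6, 158, 140.1 and 94.2 in the October libraries, against 17.1, 17.598, 27.2 and 27.1 in the August libraries (log2 change 2.48 ± 0.36 SE, adjusted p = 2.42e-06) and MANES_07G051200 rose by 1.79 (adjusted p = 0.00171). MANES_09G049900 rose by 0.98 and MANES_04G164700 fell by 0.41 (adjusted p = 0.0491 and 0.0293), and these calls were lost in 10 and in 7 of the 16 alternatives (adjusted p up to 0.267 without October library 2 and 0.115 without August library 2).

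The jasmonate and flavonoid lists had more falls than rises, with 25.5% and 20.6% of members called, against 18.5% of all genes. Of 55 jasmonate genes 5 rose and 9 fell (median -0.18), with 3 rises without October library 3. AOC3 MANES_01G108000, an enzyme of jasmonate synthesis, was at 23.0, 19.3, 23.1 and 18.1 in the October libraries, against 121, 118, 134 and 141 in the August libraries (log2 change -2.57 ± 0.2 SE, adjusted p = 5.32e-12), and MYC2 MANES_01G241700, a homologue of the master transcription factor of the response, was at 2.33, 3.1, 2.81 and 3.26 in the October libraries, against 25.4, 20.5, 26.6 and 6.77 in the August libraries (log2 change -2.27 ± 0.43 SE, adjusted p = 0.000129). The other tested MYC2 homologues, MANES_01G056200, MANES_02G002300 and MANES_17G016000, did not pass (adjusted p = 0.897, 0.324 and 0.658 in limma). AOC4 MANES_02G066600, of the same family as AOC3, rose by 1.35 (adjusted p = 0.0014; 0.0613 with the compared groups alone). Of 3 tested homologues of LOX2, which acts before AOC3, MANES_10G148800 rose by 0.9 (adjusted p = 0.000909) and MANES_10G149100 fell by 0.99 (adjusted p = 0.00965; 0.143 with a pseudocount of 0.1). Of 34 flavonoid genes 2 rose and 5 fell (median -0.09). CHS catalyses the first committed step, and its homologues moved apart: MANES_04G094200 was at 9.01, 6.29, 0.952 and 6.52 in the October libraries, against 47.6, 60.02, 46.5 and 12.1 in the August libraries (log2 change -2.69 ± 0.41 SE, adjusted p = 4.6e-06), and MANES_11G075100 averaged 136 ± 18.9 on 10 October and 67.5 ± 26.6 on 7 August (log2 change 1.07, adjusted p = 0.00294). CHIL MANES_07G140900, which assists that step, averaged 23.53 ± 11.3 on 10 October and 112 ± 60.7 on 7 August (adjusted p = 8.87e-06). Of 38 phenylpropanoid and lignin genes 7 rose and 3 fell (median 0.2), with 4 rises without August library 3 or October library 4 and 5 falls without August library 1.

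On the lists for defence, nutrients and cold, 14.0% to 20.8% of members were called, against 18.5% of all genes. Of 57 genes of salicylate and immunity 6 rose and 2 fell (median 0.39), among them WRKY53 MANES_05G030900 with a rise of 2.16 (adjusted p = 0.003), WRKY70 MANES_08G170600 with a fall to 300.4 on 10 October, against 664 on 7 August (adjusted p = 1.53e-05) and the chitinase PR3 MANES_S012500 with a fall to 25.3 on 10 October, against 95.8 on 7 August (adjusted p = 2.42e-07). Nitrogen genes had 2 rises and 2 falls of 27 (median 0.2), with 1 fall without August library 1 or October library 4. NRT1.7 MANES_05G095700, which loads nitrate from old leaves into the phloem in Arabidopsis, was at 0, 0, 0.454 and 0 in the October libraries, against 15.9, 7.56, 10.8 and 4.16 in the August libraries (log2 change -3.14 ± 0.31 SE, adjusted p = 8.96e-10). Both rises were ammonium transporters AMT1.1, MANES_03G156400 and MANES_15G047400, by 0.82 and 0.85 (adjusted p = 0.0127 and 0.000497). Phosphate genes had 4 rises of 22 (median 0.22), but 2 without August library 1 or 2 or October library 2, 3 or 4, and 1 with median-ratio scaling or with the compared groups alone. The regulator PHR1 MANES_12G035600 kept its call in all 16 alternatives (log2 change 1.22, adjusted p = 0.000317). Cold and dehydration genes had 3 rises and 2 falls of 24 (median 0.07), with 5 rises without August library 4, 1 rise without October library 3 and 1 fall without October library 1. ELIP1 MANES_15G033100, which protects chloroplasts in strong light, fell by 1.25 (adjusted p = 0.0043). Of 28 genes of starvation and senescence 8 rose and 2 fell (median 0.38), and 4 or 5 rose without August library 1 or October library 1 or 4. The glutamine synthetase GLN1.1 MANES_01G119500 averaged 247 ± 12.3 on 10 October and 92.2 ± 17.57 on 7 August (log2 change 1.43, adjusted p = 2.87e-06).

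The 12 largest rises and 12 largest falls among annotated genes took in several genes outside the lists. PLA IIA MANES_05G171400, a patatin-like lipid hydrolase, was at 102, 101, 107 and 202 in the October libraries, against 1.54, 3.31, 3.59 and 7.52 in the August libraries (log2 change 4.76 ± 0.5 SE, adjusted p = 3.26e-09). LTP3 MANES_S095100, a lipid transfer protein, was at 102, 101, 212 and 181 in the October libraries, against 5.84, 6.71, 3.25 and 15.1 in the August libraries (log2 change 4.2 ± 0.54 SE, adjusted p = 2.4e-07). ATERF#011 MANES_05G175800, an ethylene-response-factor type transcription factor, was at 37.4, 39.3, 31.8 and 33.8 in the October libraries, against 0, 1.06, 7.06 and 0 in the August libraries (log2 change 4.17 ± 0.88 SE, adjusted p = 0.000604). Cytochromes P450 took 4 of the 12 places: CYP82C2 MANES_05G167600 averaged 175 ± 39.1 on 10 October and 14.5 ± 11.5 on 7 August, CYP71B34 MANES_15G062200 23.53 ± 18.21 on 10 October and 0.662 ± 0.568 on 7 August, and the ATR4 homologues MANES_05G151100 and MANES_05G140000 were at 9.11, 15.2, 32.3 and 22.9 and at 7.33, 11.9, 13.3 and 15.6 in the October libraries, with a single August library above 0 in each. CML11 MANES_09G153600, a calmodulin-like protein, was at 10.7, 13.5, 12.1 and 11.1 in the October libraries and listed at 0 in all 4 August libraries. DRM1 MANES_17G047900, named for dormant buds, averaged 116 ± 31.9 on 10 October and 10.0 ± 7.67 on 7 August (adjusted p = 0.000655). Among the largest falls, AGP26 MANES_05G068100 and AGP18 MANES_10G073000, arabinogalactan proteins of the cell surface, were at 8.48, 1.32, 2.98 and 2.4 and at 0, 0.34, 0 and 0.311 in the October libraries, against 102, 68.2, 108 and 86.3 and against 23.57, 27.6, 23.56 and 16.5 in the August libraries. ATBSMT1 MANES_02G096900, which methylates salicylate and benzoate in Arabidopsis, averaged 18.1 ± 4.81 on 10 October and 361 ± 53.5 on 7 August (log2 change -4.27, adjusted p = 1.84e-12). APR MANES_12G073800, of sulfate reduction, was at 3.24, 2.01, 0 and 5.51 in the October libraries, against 38.8, 46.0, 71.4 and 130.0 in the August libraries (adjusted p = 0.0012). CYP86A8 MANES_01G059800, which hydroxylates fatty acids for cutin, was at 4.31, 6.07, 1.95 and 2.1 in the October libraries, against 159, 122, 149.8 and 11.1 in the August libraries (adjusted p = 1.62e-05), and ATLTP1 MANES_08G171700 averaged 12.6 ± 4.48 on 10 October and 252 ± 112 on 7 August (adjusted p = 4.5e-12).

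A pair of MLP423 homologues, of the latex-protein-like family, changed in opposite directions. MANES_05G089800 was at 1349, 1844, 1867 and 1612 in the October libraries, against 54.7, 35.2, 150.05 and 205 in the August libraries (log2 change 4.22 ± 0.5 SE, adjusted p = 4.67e-08). MANES_05G090000 was at 10.2, 6.67, 0 and 2.61 in the October libraries, against 338, 308, 255 and 64.0 in the August libraries (log2 change -5.6 ± 0.64 SE, adjusted p = 2.37e-08). How reads matching near-identical copies were divided is not given in the sources used here, so values of such copies, also among the HSP17.6C, GA2 and ATR4 homologues, are uncertain. August library 1 was the lowest of its date in 9 of the 12 largest rises. Without it 3595 genes were called in place of 4333, of which 3418 were shared, 78.9% of the 4333 and the smallest share of the fits without 1 library. August library 4 was the lowest of its date in 8 of the 12 largest falls. Without library 4 there were 3925 calls, of which 3616 were shared, and the 24 largest rises and falls all kept their call.

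Earlier Hanoi dates were set beside these. BFT MANES_14G027800 averaged 0 in Hanoi leaves of 24 May, 0.131 in those of 13 July, 0.397 in those of 7 August and 183 in those of 10 October, so that its mean exceeded 1 only at the last of them. In Bac Kan its 4 libraries lay between 34.9 and 53.9 on 5 October and between 0 and 12.7 on 15 August, and the Hanoi change was the larger (difference 3.52 ± 0.66 SE, adjusted p = 0.000238; 0.0579 with a pseudocount of 0.1). SPL5 MANES_03G106900 was lower at each later date, with means of 809, 214, 60.4 and 6.71 over the same dates, and SOC1 MANES_05G041900 higher at each, with 31.4, 64.8, 120.1 and 239. HSP17.6II MANES_16G083600 had means of 109.6, 23.4, 713 and 3.86, so that 7 August was its highest Hanoi date. DPE2 MANES_08G162200 had 195, 110.0, 107 and 11.2. These earlier levels are means of 4 libraries given as description.

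The genes whose log2 levels followed BFT most closely over the 11 group means of the series were low ones: MANES_05G038500, a thioesterase family protein (Pearson r = 0.941), AtUGT85A2 MANES_15G098300, a glucosyltransferase (r = 0.939), ATPRB1 MANES_07G050400, a pathogenesis-related protein (r = 0.936), MANES_11G030600 (r = 0.933) and ATSOT16 MANES_06G074900, a sulfotransferase (r = 0.931). Of these, ATPRB1 was at 5.5, 10.9, 13.4 and 11.7 in the October libraries, against 0, 1.21, 0 and 2.0 in the August libraries (log2 change 2.77 ± 0.53 SE, adjusted p = 0.000176), and AtUGT85A2 averaged 5.38 ± 1.48 on 10 October and 0.581 ± 0.28 on 7 August (log2 change 2.0, adjusted p = 3.26e-05). ATSOT16 rose by 1.39 (adjusted p = 0.00899), and the others did not pass (adjusted p = 0.089 and 0.173). The 11 points share the sites and the season, and the correlation is a description.

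**Figure D5:**
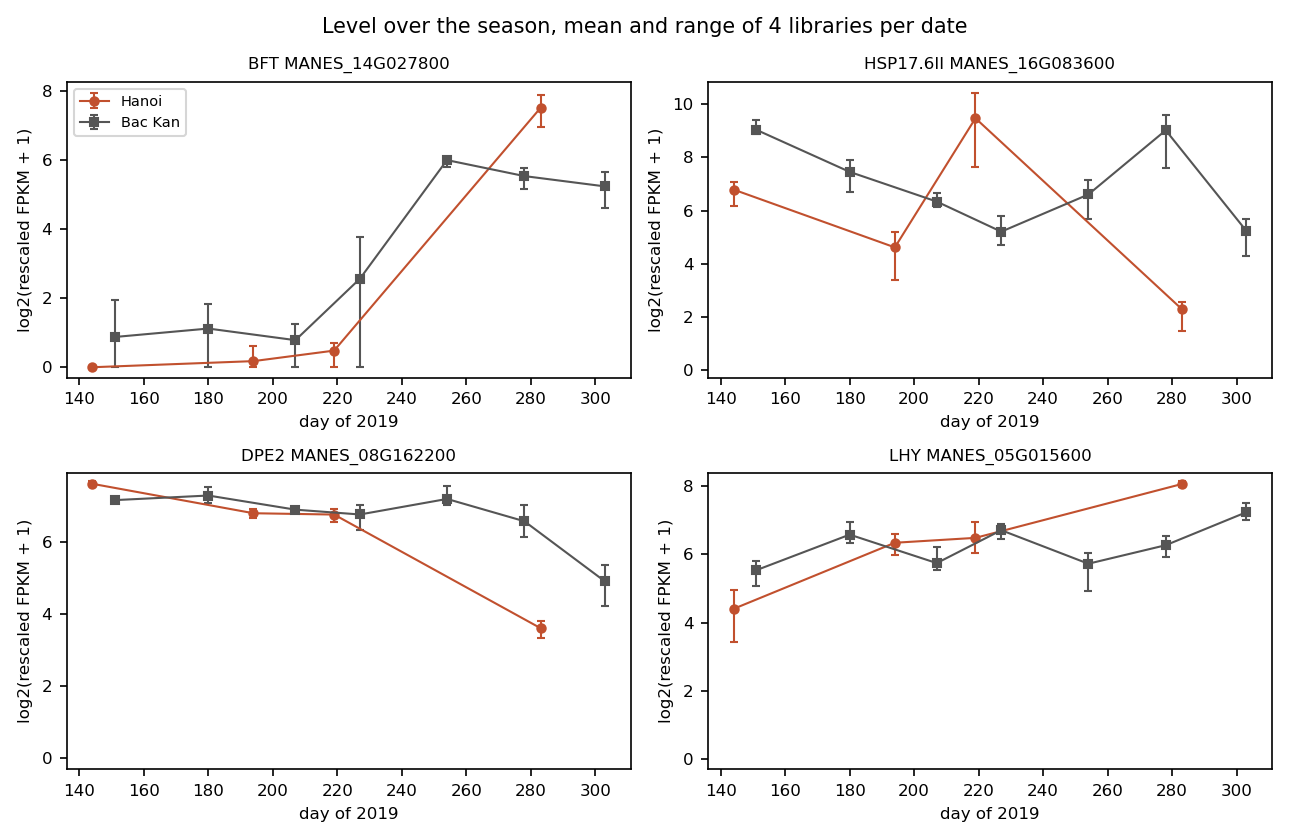
Level of BFT, HSP17.6II, DPE2 and LHY MANES_05G015600 over the season as log2(rescaled FPKM + 1) against the day of 2019, in Hanoi (orange circles, 4 dates) and Bac Kan (grey squares, 7 dates). Points are means and bars the range of the 4 libraries. The last Hanoi point, 10 October, is the highest for BFT and LHY and the lowest for HSP17.6II and DPE2.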

How the data were processed

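RNA sequencing of 44 cassava leaf libraries was deposited as FPKM per transcript, computed by the authors; TopHat2 is named per the submitters' processing notes, and the quantifier, genome build and annotation version are not given in the sources used here. Groups came from the sample titles. Transcripts were summed per gene, and each library was rescaled to 1000000. 1 column of per-sample values matched no sample and was not used. The 23405 genes that reached 1 in 4 or more libraries were tested as log2(value + 1) with limma's trended moderated test on all 44 libraries, with 33 residual degrees of freedom, two-sided, with Benjamini-Hochberg adjustment over all genes tested and a threshold of 0.05. The difference between the Hanoi and Bac Kan changes was a contrast in the same fit. Because the deposited FPKM hold no counts, no count test was run. On simulated data with 22984 genes, 50% of 100 genes changed by 1 and 94% of 100 genes changed by 2 on the log2 scale were called, as were 0.07% of unchanged genes. The changed genes were drawn from those well above 0 in August, with normally distributed noise. They were far fewer than the 4333 called in the data, so these shares need not hold for the real comparison or for genes near 0.

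Lists are homologues of Arabidopsis genes by the best hit in the deposited annotation. Comparisons, members and lists were chosen with earlier results of these data known. Genes were named by rule: the 12 largest annotated rises and falls with fully separated libraries and a mean of at least 5 in the higher date, up to 4 called and separated genes per list, the homologues of fixed flowering and clock genes, 6 genes with the clearest site difference, and those most like BFT. A further 63 of the 216 were singled out after their values were seen, among them RVE8, GRP7, PRR3, PRR7, HSFA2, CDF2, PHYE, AGL19, SPL4, GA20OX1, STP1, BAM1, BAM3, XTH28, LOX2, WRKY70, IAA16, CYP714A1, SWEET17, ABA2, HSP101, HSP70, LHCB3 and RBCS3B and the heat shock genes that rose. Not every gene chosen by these rules is printed, and 1 is left out as not reported here. Alternatives were the deposited scale, median-ratio scaling, the most abundant transcript, no filter, pseudocounts of 0.1 and 5, no variance trend, the compared groups alone, and leaving out each library. R 4.3.3, limma 3.58.1, pandas 2.3.3, scipy 1.17.1 and matplotlib 3.10.9 were used.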

Additional observations from a re-analysis of the deposited data

Results flagged for a closer look

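A single library stood apart from the other 3 of its date, with a gap above Dixon's critical value, in 22 of 430 gene and date groups examined. For normally distributed values chance gives about 1 in 20. Where the other 3 libraries are at 0, any value above 0 stands apart, and the 1 in 20 does not hold. Such groups include NRT1.7, FLA11 and FT in October and IAA3 in August. The highest October library stood apart for NRT1.7 MANES_05G095700 (rescaled FPKM 0.454), PLA IIA MANES_05G171400 (rescaled FPKM 202), PRR3 MANES_07G104900 (rescaled FPKM 7.12), JOX2 MANES_07G130300 (rescaled FPKM 0.674), WRKY70 MANES_08G170600 (rescaled FPKM 379.8), FLA11 MANES_11G143700 (rescaled FPKM 0.199), FT MANES_13G000800 (rescaled FPKM 1.21) and TOC1 MANES_14G081500 (rescaled FPKM 11.0). The lowest October library stood apart for AP1 MANES_01G103200 (rescaled FPKM 0), ERD7 MANES_04G074700 (rescaled FPKM 9.53) and ZAT10 MANES_07G061700 (rescaled FPKM 15.9). The highest August library stood apart for PRR5 MANES_05G016200 (rescaled FPKM 38.3), WRKY53 MANES_05G030900 (rescaled FPKM 16.0), ATR4 MANES_05G140000 (rescaled FPKM 0.338), ATR4 MANES_05G151100 (rescaled FPKM 0.97), CYP82C2 MANES_05G167600 (rescaled FPKM 31.5), ATERF#011 MANES_05G175800 (rescaled FPKM 7.06), IAA3 MANES_09G152700 (rescaled FPKM 6.34) and MANES_11G030600 (rescaled FPKM 1.7). The lowest August library stood apart for SGR1 MANES_02G030000 (rescaled FPKM 9.65), PIP1.1 MANES_11G089300 (rescaled FPKM 77.2) and SVP MANES_12G126800 (rescaled FPKM 10.3).

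The change in Hanoi, October minus August, differed from the change in Bac Kan at an adjusted p below 0.05 in limma for 22 of 50 genes examined. Of all genes tested, 10.8% differed. The genes examined were chosen in part by their change in Hanoi or by this difference itself, so the 22 of 50 is no measure of how common it is. The difference of the changes, Hanoi minus Bac Kan on the log2 scale, was positive for LHY MANES_01G239000 (2.11), LHY MANES_05G015600 (2.06), MLP423 MANES_05G089800 (3.79), PLA IIA MANES_05G171400 (2.7), ATERF#011 MANES_05G175800 (4.37), SVP MANES_07G038600 (0.99), IAA3 MANES_09G152700 (5.6), SVP MANES_10G099000 (1.04), BFT MANES_14G027800 (3.52), TCH4 MANES_14G152100 (5.06) and SVP MANES_18G059200 (0.74). It was negative for BAG6 MANES_01G250800 (-3.72), MLP423 MANES_05G090000 (-4.34), ROF1 MANES_05G198600 (-9.21), HSP90.1 MANES_06G152800 (-8.40), DPE2 MANES_08G162200 (-2.95), ATLTP1 MANES_08G171700 (-5.09), AGP18 MANES_10G073000 (-3.94), PIP1.1 MANES_11G089300 (-3.38), APX1 MANES_11G139700 (-2.61), HSP21 MANES_12G017300 (-9.57) and HSP17.6II MANES_16G083600 (-10.56). The difference for SVP MANES_18G059200 had an adjusted p of 0.0457 and was lost in 21 of 24 alternatives. With a pseudocount of 0.1 the difference was also lost for PLA IIA (adjusted p = 0.235), ATERF#011 (0.076) and BFT (0.0579), and with the most abundant transcript alone for LHY MANES_01G239000 (0.0547).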

How the results depend on the processing

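The number of genes called between 10 October and 7 August was 4333. It was 4353 on the deposited FPKM scale, 4209 with median-ratio scaling, 3967 with the most abundant transcript, 4287 without a filter, 4225 without a variance trend, 4935 with the compared groups alone, and 3922 and 4665 with pseudocounts of 0.1 and 5. Leaving out a library of either date gave 3542 to 3925. The share of calls that were higher in October was 48.7% to 59.2% over the alternatives, against 56.0%. Of 205 named genes tested 190 were called, 132 of them in all 16 alternatives and 58 not in all. Many of them were named because they were called, so the 190 cannot be read against the 18.5% called of all genes tested. Directions turned for SVP MANES_02G145300, whose change was -0.0004 and ran from -0.075 to 0.1001 (0.005, 0.1001, 0.009, 0.02 and 0.04 without August library 1 or 4 or October library 1, 3 or 4), and for FKF1 MANES_15G134900, at -0.19, with a range of -0.65 to 0.12 (0.03, 0.03 and 0.12 without August library 3 or 4 or October library 1). Neither was called, and the cause was not tested. No paired analysis was possible because the table columns carry no replicate number. FPKM without read numbers leave the depth unknown, so a 0 says only that a gene is listed at 0.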
